A study of Gallus gallus with 6 samples.

Results

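Growing wing feathers were compared with growing neck feathers of the adult chicken in 4 of the 6 libraries of the series, 1 wing and 1 neck library in each of 2 deposited tables. The remaining 2 libraries came from leg feathers. In the fit they entered only the estimate of the spread between libraries, and their values are given beside those of neck and wing. All birds were wild type, of the strain labelled domesticus, and untreated. The submitters' design states that feathers in their growth phase were plucked, that the mesenchymal pulp was removed, and that the epithelium of 5 feathers was pooled for each RNA sample. The methods of the study describe RNA from whole follicles or from dissected dermal papilla and pulp. Sums of cell marker genes are given below. Which account holds for these libraries, and how much pulp each held, was not tested. Labels give each region 2 repeats, without saying whether they came from separate birds. The p-values and SEs therefore describe the spread between these libraries, pooled over genes of similar level, which may be technical.

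The first table (repeat 1) holds whole numbers per gene and locus whose unit is not given, called scores here. The second table (repeat 2) holds FPKM, fragments scaled to transcript length and to the mapped total. Each table lists 6534 entries, of which 2191 genes were listed once in both, 3150 in the first only and 4322 in the second only. The 2 units cannot be joined, so every wing-to-neck ratio was taken within a table, as log2((wing + 1)/(neck + 1)). Scores summed to 4195932 in neck and 1780292 in wing, FPKM to 792798 and 701758. The 10 highest entries took 66.9% of the neck scores and 40.7% of the wing scores, and 27.3% and 11.6% of the FPKM. Sequencing depth is unknown, since neither table gives read numbers.

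A feather grows from a follicle in which an epithelial collar surrounds a mesenchymal core, the dermal papilla and pulp. The epithelium folds into barb ridges, melanocytes hand pigment to its cells, and the cells fill with feather keratins, small beta-sheet proteins encoded in clusters of near-identical genes, before they die and harden. Body region is known to be recorded in skin cells by homeobox genes, and signals of the Wnt, BMP and FGF families pass between epithelium and mesenchyme during feather growth.

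Among the genes listed in both tables at a level of 5 or more, rises shared their direction more fully than falls. Of those 2-fold higher in wing by the first table, 67 of 67 were higher in the second, and 161 of 161 conversely. Of those 2-fold lower, 64 of 74 and 20 of 22 kept their sign. Signs were read against a ratio of 1, not against each table's median ratio, which differed between the tables. The genes named next were picked for 2-fold changes the same way in both tables. ASIP (agouti signalling protein, an antagonist of the melanocortin receptor of melanocytes), the chemokine CXCL14 and a group of collagens and matrix proteins were far higher in wing, and HOXD4, a homeobox gene, was nearly absent from wing. Of 2140 genes tested with limma across both tables, 608 passed an adjusted p of 0.05. Of all genes tested, 20% were higher in wing (427 genes) and 8.46% lower (181 genes). This split moved with the scaling: after each library was centred on its median, 25.2% were higher (539 genes) and 23.3% lower (498 genes), so the excess of rises did not hold after centring. The median wing-to-neck log2 ratio of the genes shared by the tables was -0.05 by scores and 0.33 by FPKM. The fit kept the table as a block. Without the block 9 genes were called. With 1 library left out the count went to 511 (neck repeat 1), 195 (neck repeat 2), 479 (wing repeat 1), 308 (wing repeat 2), 198 (leg repeat 1) and 208 (leg repeat 2).

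Changes of at least 2-fold in both tables were fewer. All passed the test, which adds no separate support, because the fitted change is the mean of the same 2 ratios. With a level of at least 5 in the higher region of each table, 66 genes (3.09% of 2139) were higher in wing and 19 (0.888%) were lower, and 0 moved 2-fold in opposite directions. Relative to each table's median ratio, 62 were higher and 39 lower. The ratio was larger in size in the second table for 63 of the 66 rises and for 4 of the 19 falls. Leg feathers lay between neck and wing in both tables for 31 of the 66 rises and 14 of the 19 falls, and nearer to neck than to wing in both tables for 55 and 16 of them. Within the first table alone, 188 of 5335 entries (3.52%) were 2-fold or more higher in wing and 381 (7.14%) lower. Within the second alone, 561 of 4226 (13.3%) were higher and 72 (1.70%) lower.

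**Figure D1:**
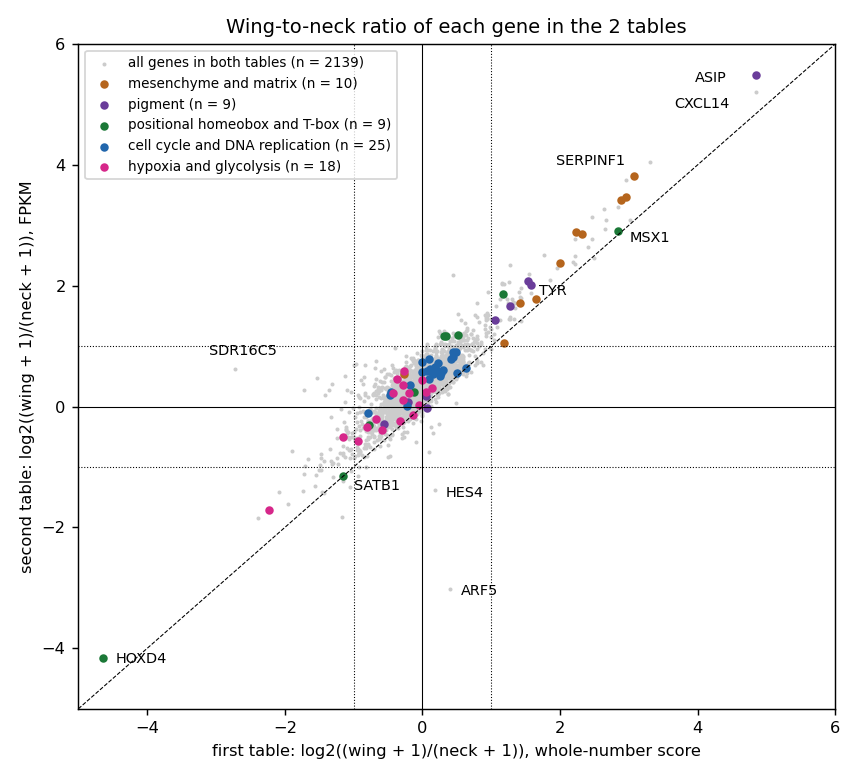
Wing-to-neck log2 ratios of the 2139 genes at a level of 5 or more in both tables, with the first table (scores) on the x axis and the second (FPKM) on the y axis. Each point is a gene, colours mark 5 gene lists, dotted lines mark 2-fold and the dashed line marks equal ratios; ASIP and CXCL14 lie at the top right, HOXD4 at the bottom left, and the cloud sits above the dashed line because its median is -0.05 on the x axis and 0.33 on the y axis.

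Only 4 called genes had opposite signs in the tables. The developmental repressor HES4 was at 53 in neck and 60 in wing in the first table, and at 44.7 and 16.6 FPKM in the second. SDR16C5, a retinol dehydrogenase, read 271 and 40 in the first table against 9.83 and 15.6 FPKM in the second. SSU72 and ARF5 were the other 2, and ARF5 was listed at 0 FPKM in wing and leg. These 4 were singled out after their values were seen. Their direction depended on the table. LMO2, also called, was at 33 in both regions of the first table.

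The agouti gene ASIP (chr20:1628079-1661207 in the first table) had the largest rise among the genes listed in both tables. The study names Galgal4 for its mapping, but whether the loci of the first table follow that build was not checked. Its score was 3, 114 and 10 in neck, wing and leg, and its FPKM was 5.12, 274 and 13.0. Wing stood apart from both other regions in each table, and the fitted log2 change from neck to wing was 5.17 ± 0.18 (SE). ASIP blocks melanocortin signalling and thereby shifts melanocytes from black eumelanin to yellow pheomelanin. Several other genes of pigment cells were higher in wing as well. TYR, tyrosinase, the first enzyme of melanin synthesis, was at 26, 77 and 17 in neck, wing and leg, and at 48.7, 209 and 36.0 FPKM, a log2 change of 1.81 ± 0.17. SLC45A2, a transporter of the melanosome, rose by 1.48 ± 0.18 on the log2 scale, from 13 to 33 and from 26.3 to 86.1 FPKM. GPR143, a receptor in the melanosome membrane, rose by 1.80 ± 0.18, and EDNRB2, the endothelin receptor that guides avian melanoblasts, by 1.25 ± 0.18. In TYR and SLC45A2 leg lay below neck in both tables.

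Pigment genes listed in a single table mostly leaned the same way. MLANA was at 147 in neck and 575 in wing, and GPNMB at 192 and 628, in the first table. PMEL, which forms the fibrils on which melanin is laid down, was at 24 and 62 in the first table but was listed at 0 in all 3 regions of the second. SOX10 (1.92 and 8.53 FPKM) and PAX3 (0.753 and 6.52 FPKM), transcription factors of melanocytes and other neural crest cells, were higher in wing in the second table. TYRP1, a eumelanin enzyme, went the other way: 13.7 FPKM in neck, 20.2 in leg and 0.203 in wing. The pigment list as a whole had 8 of 15 entries 2-fold higher in wing and 0 lower in the first table, beside 3.52% and 7.14% of all its entries. In the second, 8 of 17 were higher and 1 lower, beside 13.3% and 1.70%. Of 9 members tested 5 were called higher and 0 lower, beside 20% and 8.46% over all genes. After centring 5 and 2 were called, beside 25.2% and 23.3%. MITF and KIT, which also mark melanocytes, did not pass: their log2 changes were 0.12 ± 0.17 and -0.07 ± 0.17. KIT was called lower after centring (-0.20). In bulk RNA, fewer cells of a type and less RNA per cell cannot be told apart, here and for every cell marker that follows.

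Genes around the cofactor tetrahydrobiopterin were among the rises, a group put together after the values were seen and described without a test of the group. QDPR, which regenerates the cofactor, was at 22, 106 and 35 in neck, wing and leg, and at 45.5, 259 and 87.2 FPKM, a log2 change of 2.35 ± 0.18. DNAJC12, a co-chaperone, was at 11, 55 and 12 and at 31.7, 167 and 39.9 FPKM, a change of 2.29 ± 0.17. Wing was highest of the 3 regions in each table for both genes. GCH1, the first enzyme of cofactor synthesis and listed in the second table only, was at 2.93, 26.2 and 14.9 FPKM in neck, wing and leg. PCBD1, a recycling enzyme of the same cofactor, was at 7.15 and 20.3 FPKM. Other members differed less: PCBD2 was at 28 and 35 in the first table, PTS at 20 and 23, and TH, the tyrosine hydroxylase of catecholamine neurons, was close to 0 FPKM throughout.

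**Figure D2:**
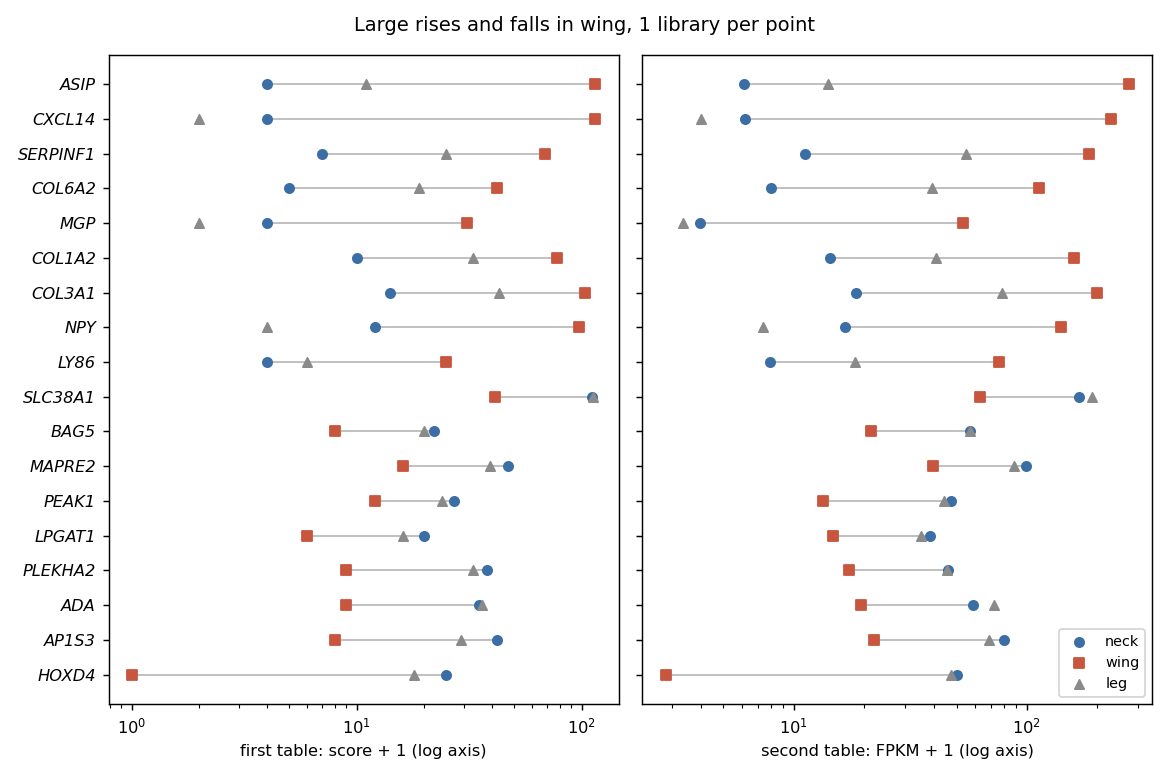
Values of large rises and falls in wing, chosen by size, as score + 1 in the first table (left, log axis) and FPKM + 1 in the second (right, log axis). Each point is 1 library and grey lines join neck with wing; the wing point of ASIP stands at a score of 114 and at 274 FPKM, HOXD4 falls to a score of 0 and 1.82 FPKM, and the leg points of the falling genes lie close to the neck points.

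Genes of mesenchyme and its matrix had more 2-fold rises shared by both tables (9 genes) than any other gene list. In the first table, 10 of 11 members present were 2-fold higher in wing (median log2 ratio 2.00, against -0.10 over all entries), in the second 21 of 24 (median 2.48 against 0.38), and 0 were lower in either. Of 10 tested, 9 were called higher, beside 20% of all genes. COL1A2, a chain of fibrillar type I collagen, was at 9, 77 and 32 in neck, wing and leg, and at 13.3, 158 and 39.6 FPKM, a log2 change of 3.22 ± 0.17. COL6A2, of the microfibrillar type VI collagen, changed by 3.44 ± 0.18, from 4 to 41 and from 7.01 to 112 FPKM. COL3A1, of type III collagen, changed by 3.15 ± 0.17, from 13 to 102 and from 17.6 to 198 FPKM. All 6 collagens listed in the first table and all 13 with a level in the second were 2-fold higher in wing, and all 5 tested were called. Over all entries, 3.52% (first table) and 13.3% (second) were 2-fold higher.

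Leg was intermediate for these collagens in both tables. The same order held for SPARC, a collagen-binding glycoprotein (34, 164 and 111; 57.6, 435 and 234 FPKM), and for the proteoglycan OGN (4, 24 and 14; 8.43, 67.1 and 34.2 FPKM). The small proteoglycans DCN and LUM rose by 1.57 ± 0.20 and 1.72 ± 0.17 on the log2 scale. SERPINF1, a secreted serpin with anti-angiogenic activity, rose by 3.68 ± 0.17, from 6 to 68 and from 10.2 to 185 FPKM. MMP2, a gelatinase, rose by 2.80 ± 0.17, and SERPINH1, the collagen chaperone of the endoplasmic reticulum, by 1.65 ± 0.17. MGP, matrix Gla protein, an inhibitor of calcification, had a different order, at 3, 30 and 1 in neck, wing and leg, and at 2.96, 52.3 and 2.34 FPKM. VIM, the intermediate filament of mesenchymal cells, was the member that did not pass: 75 in neck and 62 in wing, 133 and 193 FPKM, a change of 0.13 ± 0.19.

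Fibroblast transcription factors and surface proteins in the second table followed the collagens. TWIST1 was at 1.16 FPKM in neck and 16.6 in wing, TWIST2 at 0.738 and 15.6, and PRRX1 at 1.02 and 11. PDGFRA, the growth factor receptor of fibroblasts, was at 4.05 and 28.2 FPKM, and FAP, a fibroblast protease, at 2.72 and 25.8. All were low in neck. FBLN1, a matrix protein, was an exception at 19.5 FPKM in neck and 14.3 in wing.

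Summed genes of the leukocyte, chemokine and cytokine list were higher in wing too. The blood and endothelium sum was higher in the second table only, and there by no more than the sum of entries outside chromosome 25. The nerve and Schwann sum, held mostly by the gene TUBB3, was lower in both. Summed over the list, mesenchyme markers scored 225, 721 and 462 in neck, wing and leg, and 493, 2073 and 1159 FPKM. TCF21 was at 0 FPKM in both regions. The leukocyte, chemokine and cytokine list, with 4 genes in the first table, summed to 33, 204 and 75 there. In the second it summed to 270, 722 and 450 FPKM, and 6 of 47 were at 0 in neck and wing. The chemokine CXCL14, made by epithelia and fibroblasts, held 3, 114 and 1 of the scores in neck, wing and leg. It held 5.20, 229 and 3 of the FPKM, so these sums do not measure leukocytes alone. Blood and endothelial markers scored 360 in neck and 311 in wing over 3 genes and 789 and 950 FPKM over 25. For all entries outside chromosome 25 the wing sum was 1.24 times the neck sum by FPKM. In the second table, 7 of 11 blood and endothelial markers at a level were 2-fold higher in wing, beside 13.3% of all its genes. Nerve and Schwann markers covered 4 and 18 genes of the tables. They summed to 295, 131 and 184 in neck, wing and leg, and to 461, 318 and 345 FPKM. TUBB3, a tubulin of neurons, held most of each of these sums, with log2 ratios of -1.72 (scores) and -1.11 (FPKM). Single members did not all follow these sums. In the second table, 4 of 7 at a level were 2-fold higher in wing and 1 was lower. That compares with 13.3% and 1.70% of all its genes. The list medians were -0.38 (scores) and 1.45 (FPKM), against -0.10 and 0.38 over all entries. Markers of the follicle epithelium summed to 3794, 2896 and 2951 in neck, wing and leg in the first table, and to 5906, 7204 and 5325 FPKM, in the second, where KRT5, KRT6A and KRT75 were listed at 0. The part of these cell markers in the other results was not tested.

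All 4 leukocyte and chemokine genes present in the first table were 2-fold higher in wing, beside 3.52% of all its entries. All were called higher, beside 20% of all genes tested. CXCL14, a chemokine made by epithelia and fibroblasts, was at 3, 114 and 1 in neck, wing and leg, and at 5.20, 229 and 3 FPKM, a log2 change of 5.03 ± 0.22. Its leg value lay below neck in both tables. LY86, a partner of a Toll-like receptor relative on B cells and macrophages, rose by 2.96 ± 0.22. CD74, the invariant chain of MHC class II, was at 19, 47 and 59 in neck, wing and leg, and CTSS, a protease of antigen-presenting cells, at 8, 19 and 10. In the second table, 8 of 14 members were 2-fold higher and 1 lower, beside 13.3% and 1.70% of all its genes. CD4 (0.377 and 8.65 FPKM) and CXCL12 (4.46 and 23.5 FPKM) were among the higher. CD3E, a chain of the T cell receptor complex, was at 14.1 and 11 FPKM, and the lymph-node homing receptor CCR7 was lower in wing, at 13.1, 2.97 and 23.9 in neck, wing and leg. Among endothelial and red cell genes, the second table listed SOX18, a vessel transcription factor, at 0.343 and 13.1 FPKM and the beta-type globin HBBA (named HBG2 in the table) at 1.39 and 36.5 FPKM.

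Basement membrane and muscle-type genes were also higher in wing. COL17A1, which anchors basal keratinocytes through hemidesmosomes, was at 14, 43 and 22 in neck, wing and leg, and at 37.7, 176 and 66.4 FPKM, a log2 change of 1.87 ± 0.17. COL18A1, a heparan sulphate proteoglycan collagen of basement membranes, changed by 2.48 ± 0.17 and the integrin ITGB1 by 1.12 ± 0.18. Of 6 basement membrane and integrin genes tested, 5 were called higher and 0 lower, beside 20% and 8.46% of all genes. Of 9 genes of smooth muscle and the actomyosin apparatus tested, 7 were called higher and 0 lower against the same shares, among them CALD1, caldesmon, at 46, 117 and 47 and at 107, 296 and 118 FPKM. CSRP2, a LIM protein of smooth muscle, was high throughout, at 526, 1240 and 177 in neck, wing and leg and at 691, 2373 and 296 FPKM. ACTA2, smooth muscle actin, was at 3.93 and 26.7 FPKM.

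**Figure D3:**
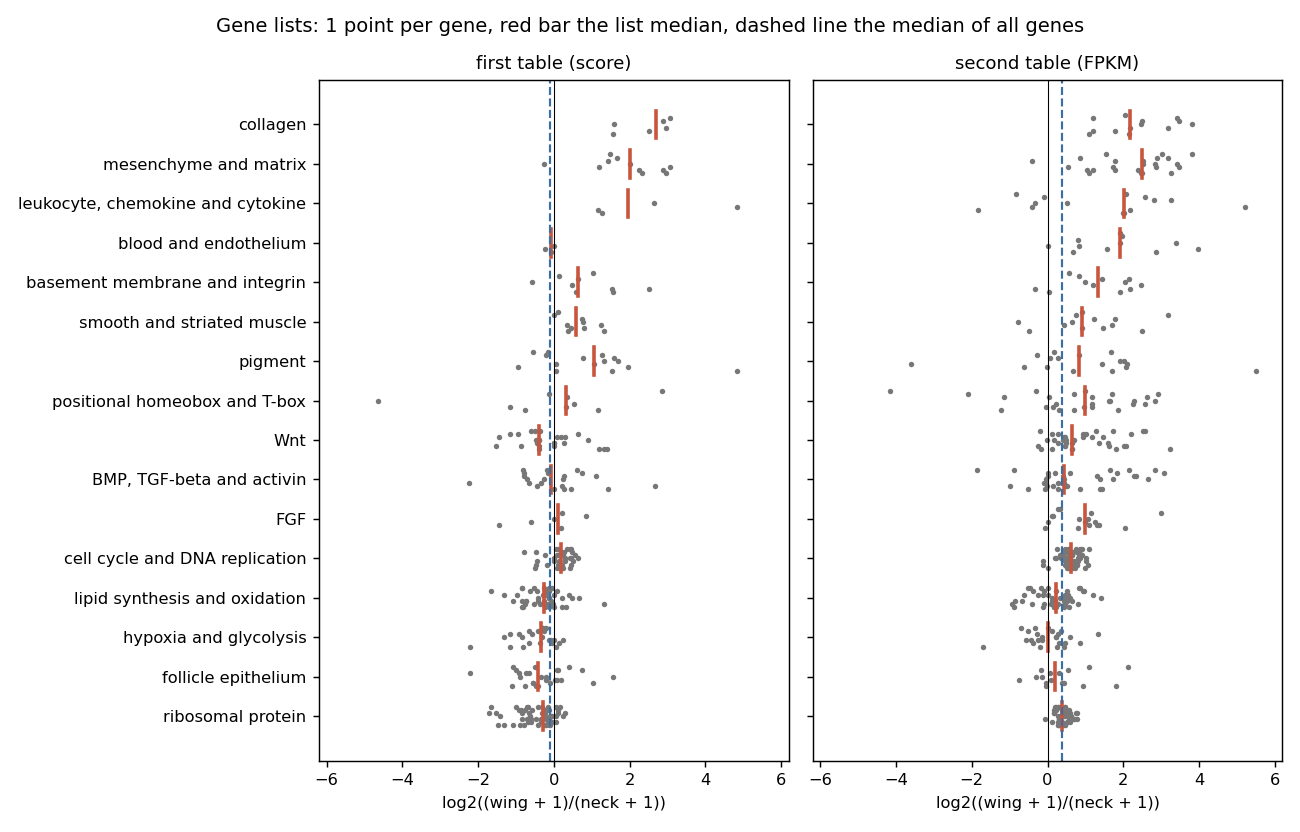
Wing-to-neck log2 ratios by gene list in the first table (left, scores) and the second (right, FPKM), with 1 point per gene, a red bar at the list median and a dashed line at the median of all genes of that table (-0.10 and 0.38). Collagen and mesenchyme medians reach 2.00 to 2.69, while the ribosomal protein, lipid and follicle epithelium medians lie a little below the dashed lines.

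Keratinocyte genes had list medians below those of all genes, at -0.43 against -0.10 (scores) and 0.20 against 0.38 (FPKM). Of 10 follicle epithelium genes tested, 2 were called higher and 2 lower (2 and 6 after centring), beside 20% higher and 8.46% lower over all genes (25.2% and 23.3% after centring). Among the higher was the transcription factor TFAP2A, at 29 and 33 and at 23.6 and 46.3 FPKM. Lower were the type I keratin KRT40, at 14 and 7 and at 38.4 and 22.5 FPKM, and MSX2. Basal-layer keratins leaned to wing where only 1 table gave a value: KRT14 was at 275, 972 and 281 FPKM in neck, wing and leg, KRT15 at 119, 526 and 133, and KRT5 scored 307, 519 and 244 in the first table. TJP3, of tight junctions, scored 27 in neck and 5 in wing in the first table, and SFN, an epithelial 14-3-3 protein, 1459 and 736. SFN did not pass the test across tables (log2 change -0.58 ± 0.29), though it was called lower after centring (-0.71). GJA1, connexin 43, a gap junction protein, fell by 1.34 ± 0.36 on the log2 scale, from 3488 to 1196 and from 6570 to 2989 FPKM, with leg at 3236 and 7159. EPCAM, an epithelial adhesion molecule, was at 872 and 932 FPKM, and TP63, the master factor of stratified epithelium, did not pass (0.27 ± 0.17).

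Entries on chromosome 25, which holds feather keratin clusters and the epidermal differentiation genes, included the highest neck value of each table. They made up 48.0% of the summed scores in neck and 14.3% in wing, and 37.4% and 12.6% of the summed FPKM. For all other entries the wing sum was 0.700 times the neck sum by scores and 1.24 times by FPKM. The part of this drop in the ratios of other genes was not tested. Runs of neighbouring entries shared a direction. They were delimited after their values were seen, so they are a description, and near-identical copies may have shared reads in the authors' counting.

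In the first table, 8 neighbouring entries between chr25:959448-987425 (the locus of the first entry's start to the last entry's end) had log2 ratios from -5.67 to -2.90 and summed to 257751, 14980 and 246200 in neck, wing and leg. The next large run, 14 entries between chr25:1017250-1044626, stayed within 2-fold, summing to 103563, 92620 and 49533 in neck, wing and leg. Another run, 10 entries between chr25:2003700-2026934, went the other way, with ratios from 2.76 to 4.27 and sums of 537, 4785 and 1601. Close to its end a run of 4 entries between chr25:2056360-2072148 held the highest single value of the table. It summed to 1480765, 18536 and 1097871 in neck, wing and leg, and 1 unnamed entry there (chr25:2071960-2072148) was at 1185480 in neck and 14095 in wing. Leg was nearer to neck than to wing in both runs that were low in wing, and below both regions in the level one.

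The second table, ordered by the neighbour order of RefSeq genes (assembly GRCg7b), showed runs of the same 3 kinds. LOC396479 and LOC396480 summed to 258 FPKM in neck and 1504 in wing. The 8 genes from LOC100859722 to LOC431323 stayed within 2-fold. Then came 13 genes, consecutive among those at 50 FPKM or more, LOC426913 to LOC769139 with F-KER (feather keratin) among them, all lower in wing, with log2 ratios from -5.29 to -2.30. Together they summed to 246112, 24260 and 279982 FPKM in neck, wing and leg. F-KER was at 30066, 2261 and 31971 FPKM. The largest single fall was LOC100859148, at 12060, 307 and 14334 FPKM. Directly beyond them LOC395095, LOC100858504 and LOC771066 were higher in wing, summing to 99.2, 1162 and 307 FPKM. KRTAP10-4, as the table names it, was at 6168 in neck and 980 in wing. Identifiers differ between the tables, so these genes were not tested.

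**Figure D4:**
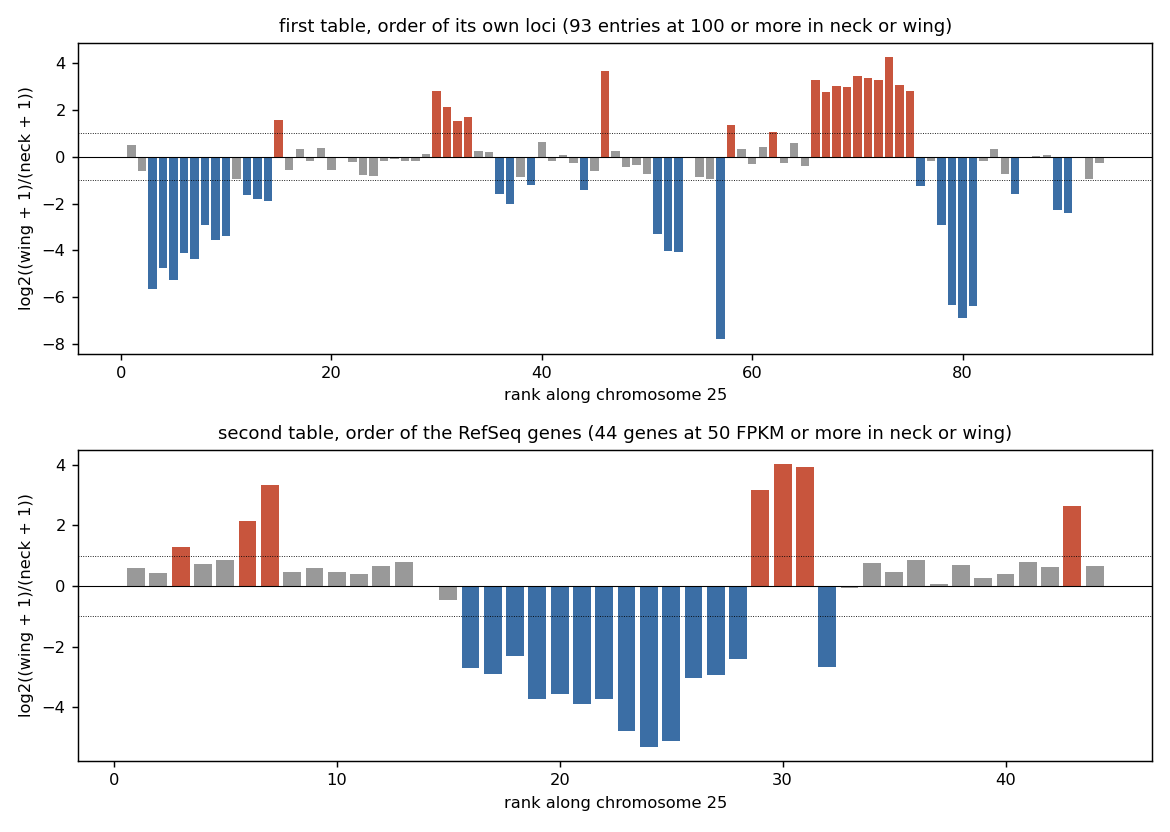
Wing-to-neck log2 ratio of chromosome 25 entries in their order along the chromosome, for the first table (top, 93 entries at 100 or more in neck or wing) and the second (bottom, 44 genes at 50 FPKM or more). Blue bars are 2-fold or more lower in wing, red bars 2-fold or more higher and grey bars between; a block of 13 blue bars down to -5.29 is followed by 3 red bars in the second table, and in the first a red block of 10 bars stands between blue ones.

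Other genes of the epidermal differentiation region had mixed patterns in the first table. EDQM3 had a pair of entries with wing lowest, at 223, 0 and 408 and at 24406, 12577 and 30161 in neck, wing and leg. EDMTFH was at 1382 in neck and 1758 in wing against 7 in leg, and EDMTF4 at 2337, 3105 and 84. S100A16, a calcium-binding protein, was at 4608 and 1718 in the first table, S100A14 at 15983 and 13147, and S100A11 was called higher, at 287 and 450 and at 238 and 586 FPKM (0.97 ± 0.23). Entries on chromosome Z had median log2 ratios of -0.16 and 0.34, near the medians of -0.10 and 0.38 of all entries. Of 10 W chromosome genes in the second table, 9 were at 0 in neck and wing and the highest value was 0.658 FPKM.

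Positional genes separated wing from neck in both directions. HOXD4 (chr7:16326991-16343699) was at 24, 0 and 17 in neck, wing and leg, and at 49.3, 1.82 and 46.1 FPKM. Wing was lowest in each table and leg sat with neck. The fitted change was -4.40 ± 0.24 on the log2 scale. In the second table HOXD8 (15.9 FPKM in neck, 6.29 in wing, 20.4 in leg) and HOXB5 (10.8, 1.75 and 15.6) also had wing lowest, with leg above neck. Within one cluster the members diverged: HOXB4 rose by 0.85 ± 0.18, from 15 to 22 and from 15.2 to 35.6 FPKM, and HOXB3 was at 5.28 and 18.3 FPKM, while HOXB5 was lower. HOXA9, a more posterior gene, was at 0.279, 5.08 and 4.52 FPKM in neck, wing and leg, so that here leg sat with wing.

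MSX1, a homeobox gene of limb and skin mesenchyme, was at 4, 35 and 1 in neck, wing and leg, and at 5.60, 48.6 and 1.91 FPKM, a log2 change of 2.88 ± 0.29. Its relative MSX2 went down, at 272 and 159 and at 392 and 317 FPKM (-0.54 ± 0.21). BARX2, a homeobox gene of epithelial appendages, rose by 1.52 ± 0.19, DLX5 by 0.74 ± 0.17 and IRX2 by 0.76 ± 0.19. SATB1, an organiser of chromatin loops, fell by 1.15 ± 0.17, from 50 to 22 and from 97.3 to 43.5 FPKM. The limb genes HAND2 (0.403 and 7.64 FPKM), TBX3 (3.07 and 12.3) and MEIS1 (0.586 and 6.66) were higher in wing in the second table, and PRRX2 was at 0.820 and 12.1. LMX1B, the dorsal limb factor, did not pass (0.06 ± 0.17). In all, 5 of 9 positional genes tested were called higher and 3 lower, beside 20% and 8.46% of all genes. In the second table, 13 of 27 were 2-fold higher and 4 lower, beside 13.3% and 1.70% of all its genes.

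Wnt genes were higher in wing mainly in the second table, where 15 of 37 members were 2-fold higher and 0 lower, beside 13.3% and 1.70% of all its genes. In the first table, 3 of 26 were higher and 3 lower, beside 3.52% and 7.14%, so the direction of the list was not shared. Of 16 tested, 7 were called higher and 2 lower (7 and 3 after centring), beside 20% and 8.46% of all genes (25.2% and 23.3% after centring). WNT11, a ligand of the non-canonical branch, was at 7, 19 and 7 in neck, wing and leg, and at 14.5, 50.8 and 18.6 FPKM, a log2 change of 1.53 ± 0.20. The receptor FZD9 changed by 1.60 ± 0.21, the nuclear effector LEF1 by 1.13 ± 0.17 and the ligand carrier WLS by 0.91 ± 0.17. APCDD1, an inhibitor at the cell surface, was at 14, 39 and 8 and at 29.0, 105 and 20.3 FPKM. Wing was highest in both tables for each of these, and leg was close to neck or below it. The receptor FZD1 and the effector TCF7 were the members called lower, at -0.70 ± 0.17 and -0.51 ± 0.18.

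Ligands and inhibitors listed by the second table alone added to this. WNT7A was at 1.92, 16.4 and 1.37 FPKM in neck, wing and leg, WNT3A at 1.38, 8.99 and 2.19, and WNT4 at 4.90, 16.9 and 4.41. The secreted antagonists FRZB (2.08, 27.8 and 1.34), SFRP1 (3.34, 19.0 and 4.64) and SFRP2 (0.668, 8.62 and 1.01) were higher in wing as well. AXIN2, a general read-out of the canonical branch, was at 19 in both regions of the first table and at 37.4 and 45.7 FPKM. In the first table WNT16 was at 22 in neck and 7 in wing. The hedgehog ligand SHH did not pass (0.27 ± 0.18).

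Of 19 BMP, TGF-beta and activin genes tested, 6 were called higher and 2 lower, beside 20% and 8.46% of all genes, and 8 and 7 after centring, beside 25.2% and 23.3%. The lower share was thus near that of all genes before centring. The receptors BMPR2 (-0.91 ± 0.17) and BMPR1A (-0.65 ± 0.17) were called lower in wing: BMPR2 was at 29, 16 and 27 in neck, wing and leg, and at 68.3, 33.7 and 71.3 FPKM. SMAD9, a transducer of BMP signals, was at 11.2, 2.34 and 13.8 FPKM. The antagonists SOSTDC1 (16, 36 and 29; 37.3, 103 and 82.9 FPKM) and FSTL1 (14, 94 and 36; 27.7, 242 and 79.7 FPKM) were called higher, by 1.28 ± 0.17 and 2.87 ± 0.17. GREM1, another antagonist, was at 0.677 and 10.9 FPKM. Among ligands in the second table BMP4 was at 4.29 and 25.6 FPKM, BMP5 at 9.90 and 37.7, and the activin subunit INHBA at 2.07 and 14. ID4, a target of BMP signals, rose by 0.99 ± 0.17, while ID2 did not pass (0.39 ± 0.19). ID2 was called higher after centring (0.26).

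FGF genes were seen mostly in the second table, where 8 of 17 were 2-fold higher in wing and 0 lower, beside 13.3% and 1.70% of all its genes. In the first table, 0 of 6 were 2-fold higher and 1 was lower, beside 3.52% and 7.14%. FGF7, a mesenchymal ligand that acts on epithelium, was at 1.43, 18.4 and 5.03 FPKM in neck, wing and leg, and FGFBP2, a secreted protein of the FGF-binding family, at 21.0, 89.7 and 8.38. Targets of the pathway were also higher, with ETV5 at 5.39 and 14.3 FPKM and SPRY2 at 4.23 and 10.2. FGFR3 was the 1 member of 4 called, beside 20% higher and 8.46% lower over all genes, at 20, 37 and 9 and at 47.8, 101 and 27.5 FPKM (0.96 ± 0.17). Of the Eph, EGF and other receptor kinase list, 3 of 19 tested were called higher and 5 lower, against the same shares. After centring 3 and 10 were called, beside 25.2% and 23.3%. AREG, amphiregulin, an EGF receptor ligand, was at 60 and 28 and at 139 and 83.7 FPKM. EPHA1, EPHB2 and EPHA4 were called lower, by -0.76 ± 0.19, -0.98 ± 0.20 and -0.51 ± 0.18, while the ephrin ligands EFNA2 and EFNA5 were called higher. NOTCH2 was called lower (-0.75 ± 0.17) and LFNG, which modifies Notch receptors, higher (0.84 ± 0.20).

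**Figure D5:**
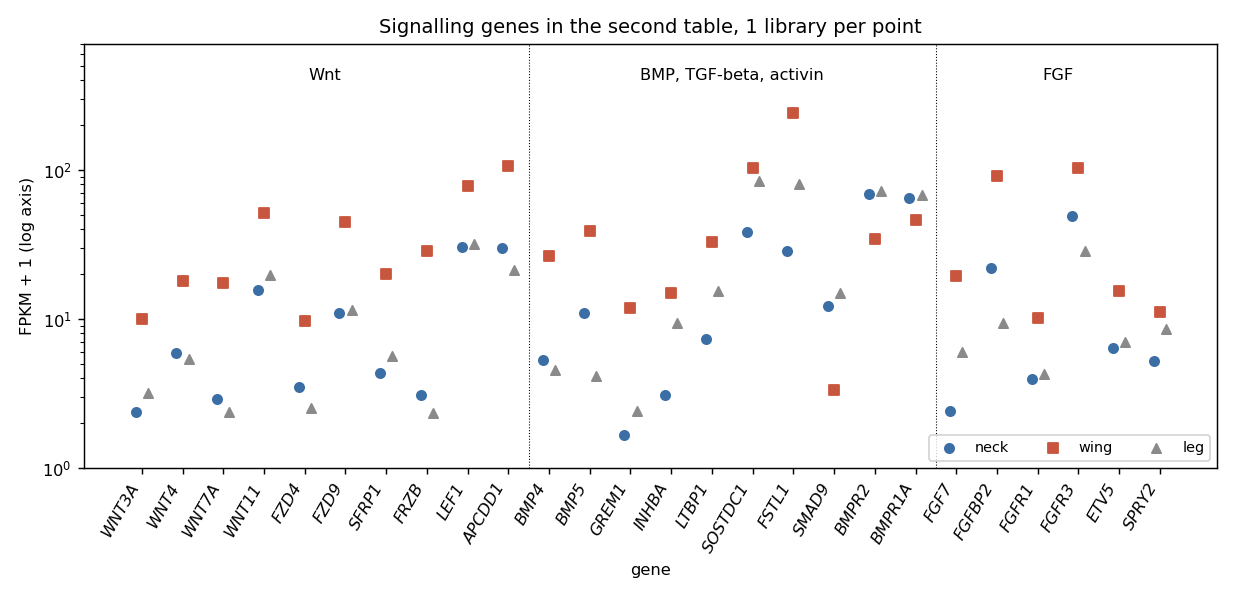
FPKM + 1 (log axis) of 26 Wnt, BMP and FGF genes in the second table, 1 library per point, with neck as circles, wing as squares and leg as triangles. The 26 genes were picked and do not stand for their whole lists. In those lists 15 of 37 Wnt, 13 of 36 BMP, TGF-beta and activin, and 8 of 17 FGF genes were 2-fold higher in wing. In the same order 0, 1 and 0 were lower, beside 13.3% higher and 1.70% lower of all genes. The wing square is the highest of the 3 regions for all genes shown except SMAD9, BMPR2 and BMPR1A, where it is the lowest; FGF7 reaches 18.4 FPKM in wing against 1.43 in neck.

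Of 3 retinoid genes tested 1 was called higher and 0 lower, beside 20% and 8.46% of all genes. Centring gave 1 and 1, beside 25.2% and 23.3%. Their median log2 change was -0.09. In the first table, 2 of 5 were 2-fold higher, beside 3.52% of all its entries. In the second table, 5 of 10 were 2-fold higher, beside 13.3% of all its genes, and 0 were lower in either. CRABP1, a cellular retinoic acid-binding protein, was at 5, 23 and 34 in neck, wing and leg, and at 7.55, 43.4 and 59.1 FPKM, a log2 change of 2.19 ± 0.18 with leg above wing in both tables. CRABP2 was at 6, 39 and 17 in the first table. RARRES2, a chemoattractant induced by retinoids, was at 9.27 and 87.8 FPKM and BCMO1, which cleaves beta-carotene, at 1.22 and 13.0. The carrier RBP5 and the reductase DHRS3 did not pass, with log2 changes of -0.09 ± 0.17 and -0.31 ± 0.19, though DHRS3 was called lower after centring (-0.44).

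Secreted peptides and metabolic enzymes filled out the list of rises. NPY, neuropeptide Y, was at 11, 96 and 3 in neck, wing and leg, and at 15.6, 140 and 6.38 FPKM (3.05 ± 0.18). FABP3, a fatty acid carrier of muscle, was at 21, 121 and 14 and at 30.8, 280 and 24.1 FPKM (2.81 ± 0.17). SMS, spermine synthase, rose by 2.30 ± 0.17, ASS1, of arginine synthesis, by 1.46 ± 0.17 and SOD1, superoxide dismutase, by 1.48 ± 0.17. In these genes leg lay at or below neck. DIO2, which activates thyroid hormone, rose by 1.73 ± 0.19 with leg between the others, at 6, 20 and 12 and at 14.4, 55.3 and 35.9 FPKM. Listed only by the second table, SPP1, osteopontin, was at 91.6, 604 and 74.8 FPKM, NELL2, a secreted glycoprotein, at 4.47, 80.2 and 3.77, and NDP, norrin, a ligand of a Frizzled receptor, at 0.136, 12.5 and 2.22.

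Of the falls, AP1S3, an adaptor subunit of vesicle coats, was at 41, 7 and 28 in neck, wing and leg, and at 78.6, 21.1 and 67.5 FPKM (-2.12 ± 0.17). ADA, adenosine deaminase, was at 34, 8 and 35 and at 58.0, 18.4 and 71.2 FPKM (-1.78 ± 0.17). Wing was lowest in both tables for each. PLEKHA2, LPGAT1, PEAK1, MAPRE2, BAG5 and the amino acid transporter SLC38A1 fell by 1.75 to 1.43 on the log2 scale. TUBB3, a tubulin of neurons, was at 226, 68 and 134 and at 396, 183 and 286 FPKM (-1.41 ± 0.21). The actin bundler PLS3 (-1.16 ± 0.18) and EZR, ezrin, which ties actin to the membrane (-1.09 ± 0.20), were called lower. Yet among 22 actin and cell protrusion genes tested, 7 were called higher and 3 lower, beside 20% and 8.46% of all genes. After centring 8 and 6 were called, beside 25.2% and 23.3%.

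Among entries listed in the first table only, some were present in a single region. ENSGALG00000031136 had 1054 in wing and 0 in the other regions, and ENSGALG00000032201 read 0, 654 and 1295 in neck, wing and leg. MSANTD1 was at 1, 36 and 0. Going down, ENSGALG00000046480 read 280306, 1787 and 229492, and the spliceosomal U1 RNA was at 988 in neck and listed at 0 elsewhere. The second table had AVR2, an avidin relative, at 710, 0.473 and 211 FPKM. These entries have 1 library per region and were not tested.

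Glycolysis genes did not rise. Of 18 hypoxia and glycolysis genes tested, 0 were called higher and 6 lower, beside 20% and 8.46% over all genes. After centring 0 and 8 were called, beside 25.2% and 23.3%. They had median log2 ratios of -0.34 (scores) and 0.02 (FPKM). GPI, which converts glucose phosphate to fructose phosphate, was at 179, 80 and 161 in neck, wing and leg, and at 345, 243 and 422 FPKM (-0.83 ± 0.21). PFKP, phosphofructokinase, was at 83 and 43 and at 148 and 99.8 FPKM, and the lactate carrier SLC16A1 and the glucose carrier SLC2A1 were also lower. ENO1, enolase, was nearly level (0.01 ± 0.32). Lipid genes changed both ways, with list medians of -0.25 (scores) and 0.23 (FPKM), below the -0.10 and 0.38 of all genes. Of 32 tested, 4 were called higher and 8 lower, beside 20% and 8.46% over all genes. After centring 4 and 12 were called, beside 25.2% and 23.3%. The fatty acid elongases ELOVL5 (-1.11 ± 0.17) and ELOVL7 (-0.75 ± 0.21) were lower, whereas the cytosolic thiolase ACAT2 was higher (0.72 ± 0.17).

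Cell cycle genes mostly had ratios above the median. In the first table, 29 of 36 had ratios above the median of all entries, and in the second 54 of 62, with list medians of 0.20 and 0.61. Of 25 tested, 8 were called higher and 1 lower, beside 20% and 8.46% of all genes (13 and 3 after centring, beside 25.2% and 23.3%), and 0 were 2-fold higher in both tables. BIRC5, survivin, a regulator of cell division, was at 41, 48 and 36 in neck, wing and leg, and at 46.9, 78.2 and 47.7 FPKM (0.47 ± 0.17). NUF2, of the kinetochore, changed by 0.69 ± 0.20 and SMC4, of condensin, by 0.63 ± 0.18. CCND3, a G1 cyclin, was the member called lower (-0.45 ± 0.17).

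Genes of general upkeep had no lower calls before centring, and ribosomal protein genes were called less often than all genes. Of 44 ribosomal protein genes tested, 1 was called higher and 0 lower, and their median log2 ratios were -0.29 (scores) and 0.37 (FPKM). Of 24 oxidative phosphorylation genes 2 were called higher and 0 lower, and of 17 proteasome genes 4 and 0. Of 42 splicing and RNA-binding genes 7 and 0 were called, against 20% and 8.46% of all genes. Centring gave 1 and 1 for ribosomal protein, 5 and 4 for oxidative phosphorylation, and 4 and 2 for proteasome genes. It gave 15 and 4 for splicing and RNA-binding genes, beside 25.2% and 23.3% of all genes. The splicing list had 51 of 72 ratios above the median of all entries in the first table and 36 of 61 in the second.

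Some of the calls of the named genes rested on single libraries. Of 93 named genes that passed the test, 59 kept their call with each of the 6 libraries left out in turn. The other 34 lost it in at least 1 of these fits. Among the genes named for the size of their change this was PEAK1 alone, without neck repeat 2. The others were GJA1, WLS, ID4, KRT40, NOTCH2, HOXB4, LFNG, BMPR1A, EPHA1, PFKP, SMC4, ACAT2, BIRC5, CCND3, DLX5, EFNA2, EFNA5, ELOVL7, EPHA4, FZD1, GPI, IRX2, MSX2, NUF2, S100A11, SLC16A1, SLC2A1, TCF7, TFAP2A and the 4 genes with opposite signs. Their fitted changes were 1.34 or less in size on the log2 scale, while PEAK1 fell by 1.498, and the smallest change among the 59 was 0.90.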

How the data were processed

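RNA from growing feathers of 3 body regions was sequenced by the study on the Illumina platform. The submitters' processing notes name TopHat2 2.1.0, Cufflinks 2.2.1 and the build galGal4. The first deposited table holds whole numbers per gene and locus whose unit is not given in the sources used here, so they were treated as a score, not as reads. The second deposited table holds FPKM made by the authors with Cufflinks. Date-like damaged names (8 and 11 entries), merged entries (525) and unnamed entries (580) were left out of gene ratios, and 0 columns of other samples were used.

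Replicate 1 of every region is the first table and replicate 2 the second, so the table was the block. Deviations from region means correlated between libraries of a table (lowest 0.919). The differing units of the tables can give this by themselves, so it does not show how the libraries were paired. Genes listed once in both tables with a mean of at least 1 in each were fitted with limma 3.58.1 (R 4.3.3; lmFit, eBayes with trend) on log2(value + 1) over all 6 libraries, with Benjamini-Hochberg adjustment. With 2 residual degrees of freedom, limma gave infinite weight to a trend of spread against level over all genes. Each SE (0.17 to 0.31 for genes named by size) therefore holds no measure of the gene's own scatter. Adjusted p-values (1.27e-163 to 6.88e-13 for the same genes) are smaller than so few libraries alone would give. The pseudocount understates ratios of low genes. 1 library per region in a table gives no test within a table. RefSeq symbols (GRCg7b) matched 4005 first-table and 6347 second-table names. The fit was tested on simulated data. Alternatives were other scalings, pseudocounts, filters, folds and left-out libraries.

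Genes were named by a rule: the 10 largest called rises and falls with 2-fold changes in both tables, the 5 largest of genes in a single table, and members of gene lists. Some genes that the rule selects are not reported here. Genes and lists were chosen with earlier results of these data known.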

Additional observations from a re-analysis of the deposited data

Results flagged for a closer look

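Unnamed entries of the first table take no part in the comparisons. In 2 of them neck and leg were listed at 0 while wing was high: an entry on the contig AADN04005463.1 between positions 5522 and 12392 was at 37265 in wing, and one on the contig AADN04017109.1 between positions 285 and 441 was at 19520. The second table was not searched for them, since it gives no loci.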

How the results depend on the processing

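Of 608 genes called, 9 were called with no replicate block (43 at an unadjusted p under 0.05), 984 after quantile normalization, 1037 after centring and 202 with the 4 wing and neck libraries alone; leaving out single libraries gave 195 to 511. The 66 genes 2-fold higher in both tables became 154 at 1.5-fold, 30 at 3-fold and 67 or 161 by the first or the second table alone; the 19 lower became 74, 4, and 74 or 22, and 39 relative to each table's median. First-table lower entries (381) fell to 249 at a minimum of 30. Second-table higher genes (561) fell to 311 at a minimum of 20 and 298 relative to the median, and lower genes (72) went to 47 and 162. Of 102 genes tested and named, 85 lost their call without the block, 27 with 4 libraries and 4 after centring. Centring also reversed 2 and gave a call to 4 that had none, which were DHRS3, ID2, KIT and SFN. Reversals: LMX1B (-0.069 quantile, -0.072 centred) and MITF (-0.0069 and -0.011); with libraries left out in turn, LMX1B gave -0.077 to 0.19, KIT -0.20 to 0.056, RBP5 -0.43 to 0.25, VIM -0.18 to 0.44, ARF5 -2.89 to 0.26, HES4 -1.41 to 0.21, SDR16C5 -2.67 to 0.56 and SSU72 -1.29 to 0.20 on the log2 scale. The cause was not tested. Depth is unknown, and no interval from counting can be given.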
